A study of Mus musculus with 3 samples.

Results

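The nuclear oxidative phosphorylation genes were the protein-coding genes on chromosomes 1 to 19 whose symbols in GENCODE M21 (mouse build mm10) begin with Ndufa, Ndufb, Ndufc, Ndufs, Ndufv, Uqcr, Cox4 to Cox8 or Atp5, or are Sdha, Sdhb, Sdhc, Sdhd, Cyc1 or Cycs. There were 93 such genes among 20807 autosomal protein-coding genes, under 92 names, because Atp5o had 2 gene models. A gene was said to have a Setd1a peak when an interval of the Setd1a peak list lay within 1000 bp of the start of one of its transcripts (transcription start site, TSS). By this measure 46 of the 93 genes (49.5%, Wilson 95% interval 39.5 to 59.4%) had a peak, against 4682 of all 20807 genes (22.5%). The interval covers counting over genes only, and genes are not replicates. No test was made, since the deposited peak list is 1 list without replicate values. The genes with a peak came from all 5 complexes, and 8 genes for isoforms that are restricted to other tissues or induced under special conditions, such as the muscle subunits Cox6a2 and Cox7a1, had none.

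The series measured where Setd1a, a histone H3 lysine 4 methyltransferase, sat on chromatin in quiescent neural stem cells (NSCs). CUT & RUN, in which an antibody guides a nuclease to cut out the DNA around its target, was done with a Setd1a antibody in 2 libraries and with IgG in 1 library. The NSC lines came from the dentate gyrus of Hopx-CreERT2::Setd1a fl/fl::H2B-GFP mice aged 7 to 8 weeks, and all libraries carry the genotype label WT, so they share the floxed allele and the reporter and no Setd1a-deficient sample was compared. All cells had been kept for 5 days in medium without EGF and with BMP4 and FGF2, each at 20 ng/ml, which holds cultured NSCs in quiescence. The data used here are the 6969 intervals the authors kept because both Setd1a libraries had them. The list gives positions without heights or read totals, so depth is unknown, and the IgG library was not analysed here. A gene without a peak is therefore a gene without an interval in this list, not a gene shown to lack Setd1a.

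Oxidative phosphorylation makes most of the ATP of a respiring cell. Complexes I and II pass electrons from NADH and succinate to ubiquinone, complex III passes them to cytochrome c, complex IV passes them to oxygen, and complex V, the ATP synthase, uses the proton gradient that complexes I, III and IV build. Most subunits are encoded in the nucleus and the rest in mitochondrial DNA. Adult NSCs and their neuronal progeny are known to differ in their use of mitochondrial respiration. Trimethylation of H3 lysine 4, the mark that Setd1a and related enzymes place, is typical of active promoters with many CpG dinucleotides.

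The promoters at which the peaks lay are shown for 6 genes, 1 each for the accessory subunits and assembly factors of complex I and for complexes II to V. Each is the gene of its role whose peak covered the reference TSS (the most 5′ start of its APPRIS principal coding transcripts) with the midpoint closest to it, among genes whose peak had that TSS as the nearest. The 4 muscle or testis isoform genes Cox6a2, Cox7a1, Cox8b and Cox8c, without a peak, follow for contrast. Each line runs 5′ to 3′ along the gene's strand over 120 bases before and 30 bases from the TSS on (build mm10). Capitals mark matches on either strand to CCGGAAG (ETS factors such as GABPA), GCANGCGC (NRF1), AANATGGC (YY1) and the TATA box (its letters TATAAA).
Ndufb5, chr3:32736870-32737019 (+): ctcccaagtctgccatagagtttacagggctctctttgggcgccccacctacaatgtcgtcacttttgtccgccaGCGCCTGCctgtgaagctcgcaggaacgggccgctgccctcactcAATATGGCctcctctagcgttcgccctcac
Ndufaf4, chr4:24897963-24898112 (+): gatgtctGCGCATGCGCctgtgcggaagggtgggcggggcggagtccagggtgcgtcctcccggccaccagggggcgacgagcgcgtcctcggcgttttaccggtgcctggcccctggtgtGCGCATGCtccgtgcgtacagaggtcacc
Sdha, chr13:74350251-74350400 (-): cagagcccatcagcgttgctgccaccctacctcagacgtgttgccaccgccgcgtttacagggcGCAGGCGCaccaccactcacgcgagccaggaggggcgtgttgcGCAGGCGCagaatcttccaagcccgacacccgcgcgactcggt
Uqcrh, chr4:116075042-116075191 (-): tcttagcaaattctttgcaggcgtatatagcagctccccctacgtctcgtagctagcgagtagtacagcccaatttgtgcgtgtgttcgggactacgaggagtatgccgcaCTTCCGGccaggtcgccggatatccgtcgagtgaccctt
Ndufa4, chr6:11907468-11907617 (-): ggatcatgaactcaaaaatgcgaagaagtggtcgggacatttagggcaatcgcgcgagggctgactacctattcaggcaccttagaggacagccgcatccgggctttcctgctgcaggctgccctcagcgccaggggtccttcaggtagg
Atp5h, chr11:115419933-115420082 (-): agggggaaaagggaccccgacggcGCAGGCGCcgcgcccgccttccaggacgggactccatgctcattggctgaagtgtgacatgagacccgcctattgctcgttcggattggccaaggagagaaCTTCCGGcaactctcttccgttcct
Cox6a2, chr7:128206358-128206507 (-): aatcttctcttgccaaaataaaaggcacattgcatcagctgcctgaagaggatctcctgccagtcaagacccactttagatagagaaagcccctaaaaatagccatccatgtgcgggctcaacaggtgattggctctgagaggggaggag
Cox7a1, chr7:30184024-30184173 (+): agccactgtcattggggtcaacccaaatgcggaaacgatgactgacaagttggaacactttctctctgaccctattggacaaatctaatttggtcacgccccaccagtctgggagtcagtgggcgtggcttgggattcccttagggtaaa
Cox8b, chr7:140900417-140900566 (-): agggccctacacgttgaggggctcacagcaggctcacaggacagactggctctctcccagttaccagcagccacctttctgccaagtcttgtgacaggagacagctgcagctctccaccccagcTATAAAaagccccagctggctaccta
Cox8c, chr12:102899196-102899345 (+): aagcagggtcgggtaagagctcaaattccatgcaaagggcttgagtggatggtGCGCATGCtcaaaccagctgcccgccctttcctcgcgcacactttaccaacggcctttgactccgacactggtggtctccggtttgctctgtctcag

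The 6 promoters with a peak were of several kinds. The Ndufaf4 promoter held a palindromic NRF1 match and another near the TSS, with 3 matches when both strands are counted, and that of Sdha held 2. The Atp5h stretch held 1 NRF1 and 1 ETS match, that of Uqcrh 1 ETS match, and that of Ndufb5 1 NRF1 and 1 YY1 match. The Ndufa4 stretch held none of these letters. Among the 4 isoform genes, the stretch of Cox8b, a heart and skeletal muscle subunit, held a TATA box match just downstream of the reference TSS, and Cox8c, a testis subunit, held 1 NRF1 match. The CpG ratio (observed over expected CpG dinucleotides) of the printed stretches was 0.64 to 1.16 in the 6 genes with a peak. In the 4 without it was 0.08 to 0.67. These 4 were chosen from the 8 isoform genes and do not stand for all genes without a peak. Over the longer promoter stretch described below, the median was 0.37 in the 8 isoform genes. It was 0.74 (range 0.07 to 1.11) in the other 39 genes without a peak, against 0.87 in the 46 with one.

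Complex I, the NADH dehydrogenase and the largest of the complexes, had 22 of 42 genes with a peak (52.4%). The 42 include 8 genes for assembly factors rather than subunits, of which 5 had a peak. Of the 7 nuclear core subunits of complex I, which carry the flavin and the iron-sulfur clusters, 5 had one. On the NADH-oxidising arm these were Ndufs1 and Ndufv2, but not Ndufv1, which binds the flavin. On the arm towards ubiquinone, Ndufs7 (924 bp wide) and Ndufs8 had a peak. The peak at Ndufs8 (chr19:3912042-3913387) was 1346 bp wide with its midpoint 19.5 bp downstream of the TSS. Ndufs8 and Ndufv1 lie 100 kb apart, and the peak nearest to an Ndufv1 TSS was 7295 bp away. The peak at Ndufv2 lay wholly upstream, ending 125 bp before the TSS.

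Accessory subunits, which surround the core and take no part in electron transfer, had a peak in 12 of 27 genes. These were Ndufa2, Ndufa3, Ndufa10, Ndufa11, Ndufa13, Ndufab1 (the mitochondrial acyl carrier protein), Ndufb2, Ndufb4, Ndufb5, Ndufb7, Ndufc1 and Ndufs5. The widest peak of any member was at Ndufa11 (1552 bp), where it reached from the TSS upstream to that of Vmac. The peak at Ndufc1 was 887 bp wide with its midpoint 7 bp from a TSS. The 15 accessory genes without a peak were Ndufa5, Ndufa6, Ndufa7, Ndufa8, Ndufa9, Ndufa12, Ndufb3, Ndufb6, Ndufb8, Ndufb9, Ndufb10, Ndufc2, Ndufs4, Ndufs6 and Ndufv3. Of the 8 assembly factor genes named Ndufaf, 5 had a peak, namely Ndufaf2, Ndufaf3, Ndufaf4, Ndufaf5 and Ndufaf8, while Ndufaf1, Ndufaf6 and Ndufaf7 had none.

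Complex II, succinate dehydrogenase, had 2 of 4 genes with a peak. They were Sdha, the flavoprotein (338 bp wide, midpoint at -36.5 bp from the TSS), and Sdhc, a membrane anchor (406 bp, midpoint 67.5 bp downstream). Sdhb, the iron-sulfur subunit, and Sdhd, the other anchor, had none, and their nearest peaks lay 246781 and 48649 bp away. In complex III, the cytochrome bc1 complex, 6 of 9 genes had a peak. These included Cyc1, which encodes cytochrome c1 (292 bp wide), and both core protein genes, Uqcrc1 (550 bp) and Uqcrc2 (404 bp), as well as Uqcr10, Uqcrh and Uqcrq. Uqcrfs1, the Rieske iron-sulfur protein, had none within 558774 bp, and Uqcr11 and Uqcrb had none. Cycs, the somatic cytochrome c that carries electrons from complex III to complex IV, had a peak of 381 bp that lay wholly upstream, ending 169 bp before the TSS.

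Complex IV, cytochrome c oxidase, had 6 of 11 generally expressed genes with a peak. These were Cox4i1, Cox5a, Cox6a1, Cox7a2, Cox7a2l and Ndufa4, a protein first assigned to complex I. The peak at Cox5a (chr9:57520761-57522179) was 1419 bp wide, and that at Cox7a2 was among the narrowest at 267 bp. Cox5b, Cox6b1, Cox6c, Cox7c and Cox8a had no peak. The 8 isoform genes without a peak were Cox4i2, Cox6a2, Cox6b2, Cox7a1, Cox7b2, Cox8b, Cox8c and Ndufa4l2. Thus Cox4i1, Cox6a1, Cox7a2 and Ndufa4 had a peak while their counterparts Cox4i2, Cox6a2, Cox7a1 and Ndufa4l2 did not, whereas for Cox6b1 with Cox6b2 and for Cox8a with Cox8b and Cox8c neither form had one. With the 8 isoforms left aside, 46 of 85 genes (54.1%) had a peak. This step removes only genes without a peak. The share over all autosomal protein-coding genes, 22.5%, had no such genes removed, so the 2 shares are not like for like.

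Complex V had 9 of 18 genes with a peak. Of the 5 genes for the F1 head, where ATP is made, 4 had one, namely Atp5b (the catalytic beta subunit, 496 bp), Atp5c1, Atp5d and Atp5e. Atp5a1, the alpha subunit that pairs with beta, did not, and its nearest peak was 200172 bp away. The c-ring is encoded by 3 genes with the same mature protein, of which Atp5g1 had a peak (533 bp) and Atp5g2 and Atp5g3 had none. Of the 9 gene models for stalk and membrane subunits, Atp5h, Atp5j and Atp5l had a peak, and Atp5f1, Atp5j2, Atp5k, Atp5mpl and both models of Atp5o did not. Atp5s, which encodes a coupling factor, had a peak of 736 bp. The division of complex V and of the complex I core into smaller groups was made after the values were seen. The bar plot gives the counts for each role.

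**Figure D1:**
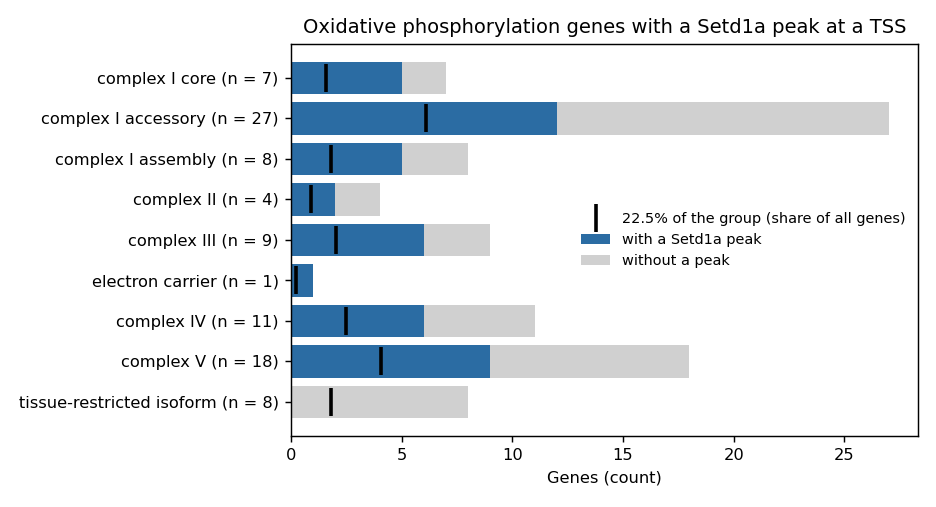
Number of oxidative phosphorylation genes with (blue) and without (grey) a Setd1a peak within 1000 bp of a TSS, by role; the horizontal axis counts genes and the black tick marks 22.5% of each group, the share among all autosomal protein-coding genes. In every role but the 8 tissue-restricted isoforms the blue bar passes the tick, with 5 of 7 in the complex I core and 0 of 8 in the isoforms.

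The peaks were of moderate width and sat on the start sites. Their median width was 503 bp (quartiles 414 and 723, range 261 to 1552) over the 46 genes, against 546 bp (quartiles 376 and 781, range 233 to 3140) over all 4682 genes with a peak. Peaks of 1000 bp or more were found at 3 of the 46 genes (6.52%), Ndufa11, Cox5a and Ndufs8, against 11.1% of all genes with a peak. Atp5e (261 bp), Cox7a2, Cyc1 and Ndufaf8 had peaks under 300 bp. The peak covered a TSS in 36 of 46 genes (78.3%, against 76.3% of all genes with a peak). Its midpoint lay at a median of -23 bp relative to the nearest TSS (quartiles -195 and 27 bp, negative values upstream), against -13 bp over all genes with a peak. The midpoint was upstream in 31 of the 46 genes (67.4%), a larger share than in all genes with a peak (54.8%). In all 46 genes a peak also lay within 1000 bp of the reference TSS, so the share at that TSS was 49.5% as well, against 20.8% of all genes. At Atp5d, Atp5j and Ndufaf3, however, the TSS nearest to the peak lay 913, 793 and 504 bp downstream of the reference TSS.

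**Figure D2:**
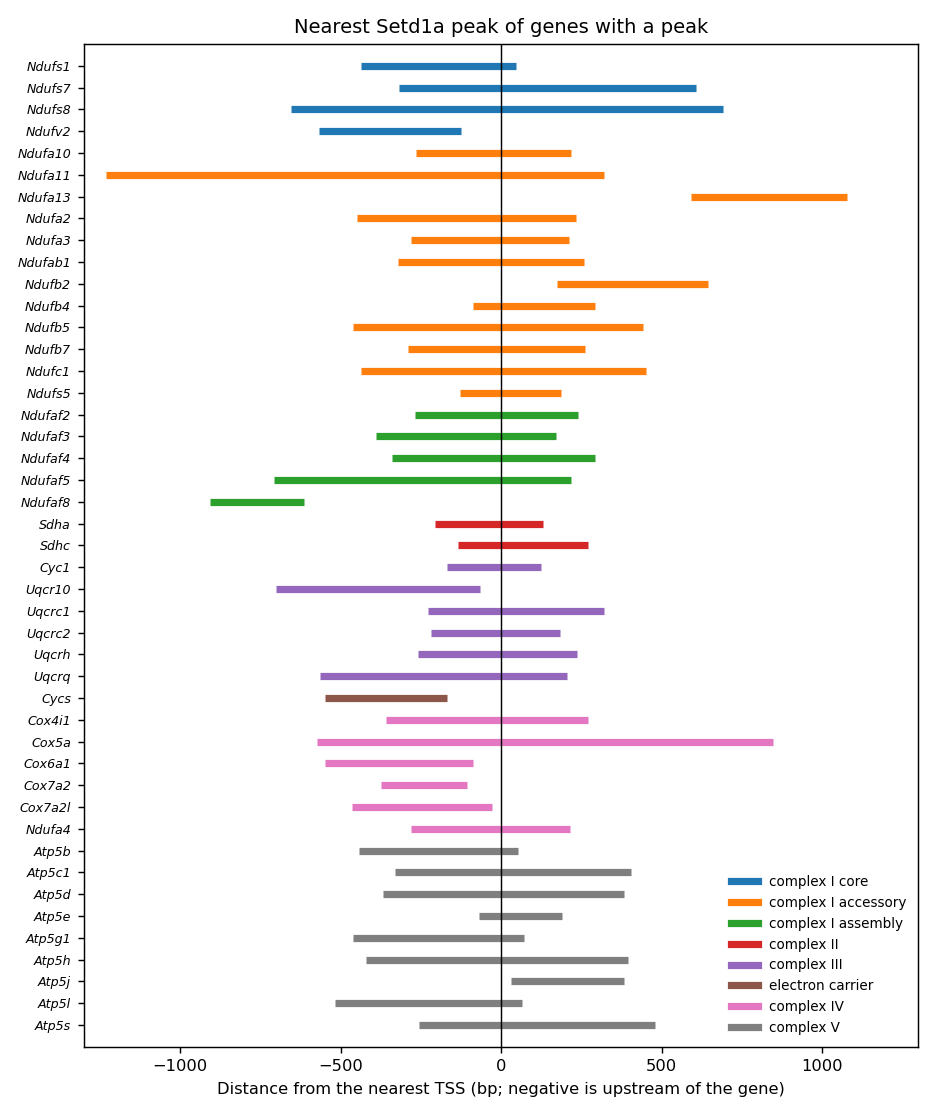
The nearest Setd1a peak of 45 genes with a peak, drawn as a bar from its upstream to its downstream edge; the horizontal axis is the distance from the nearest TSS in bp, negative upstream, and colours give the role. In 35 genes the bar crosses 0, in 7 it lies wholly upstream (Cycs, Ndufv2 and Ndufaf8 among them) and in 3 wholly downstream (Ndufa13, Ndufb2 and Atp5j).

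Few genes were near the 1000 bp limit. Of the 10 genes whose peak did not cover a TSS, 8 had an edge within 200 bp of one. The others were Ndufa13 and Ndufaf8, the members just inside the limit when measured from the nearest TSS. Ndufa13 had 2 peaks, 1 of 486 bp with an edge 593 bp downstream and 1 of 417 bp with an edge 721 bp upstream, and both also lay within 1000 bp of a TSS of Yjefn3. The peak at Ndufaf8 began 613 bp upstream and lay near the TSS of Tepsin. The member just outside was Ndufs6, with its nearest peak 2451 bp away. For the 47 genes without a peak the nearest one lay at a median of 35657 bp, and for 40 of them it was beyond 10000 bp. It was beyond 100000 bp for 17, with the longest distance at Cox7b2 (1011076 bp).

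A peak over a promoter shared by 2 genes cannot be given to 1 of them. Among the 46 genes, 20 (43.5%) had a peak that was also within 1000 bp of the TSS of another protein-coding gene, against 29.6% of all genes with a peak. Head-to-head partners, here a coding gene on the other strand starting up to 1000 bp upstream of the reference TSS, were found for 21 of the 93 genes (22.6%) and for 7.16% of all genes. Of these 21, 14 had a peak (66.7%), against 54.4% of all genes with a head-to-head partner. Of the other 72 members 32 did (44.4%). The share of all genes without a partner was not taken, and over all genes, with or without one, it was 22.5%. The starts of Ndufs1 and Eef1b2, a translation elongation factor, were 3 bp apart. Those of Sdha and Ccdc127 were 29 bp apart, those of Ndufaf5 and Esf1 85 bp, those of Cox4i1 and Emc8 101 bp, and those of Uqcrh and Lrrc41 198 bp. The interval at Ndufb5 also lay at Mrpl47, a mitochondrial ribosomal protein gene. The interval at Atp5j (chr16:84834449-84834802) was the 1 at Gabpa, which encodes the DNA-binding subunit of an ETS factor known to act on oxidative phosphorylation promoters. The 7 genes with a head-to-head partner and no peak were Ndufa5, Ndufa7, Ndufa8, Ndufb3, Ndufb9, Ndufaf7 and Sdhd. When each peak was given only to the protein-coding gene of the nearest TSS, 37 members kept one (39.8%, against 19.3% of all genes), and Ndufs1, Ndufaf5 and Sdha were among the 9 that lost it.

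Promoters with a peak were rich in CpG. Over the 300 bases from 250 before to 50 after the reference TSS, the median CpG ratio was 0.87 (range 0.51 to 1.20) in the 46 genes with a peak and 0.69 (0.07 to 1.11) in the 47 without. The 8 tissue-restricted isoforms had a median of 0.37 (0.11 to 0.56), and the other 39 genes without a peak 0.74. The medians over all genes were 0.825 with a peak and 0.43 without. The ranges overlapped widely, as Sdhd (1.11), Uqcrfs1 (1.05) and Cox5b (0.91) had high ratios and no peak, while Ndufb7 (0.51), Ndufs8 (0.53) and Uqcrc1 (0.54) had lower ratios and a peak.

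When all genes were ranked by CpG ratio and split into 5 equal groups, the share with a peak was 2.45, 6.58, 20.6, 36.6 and 46.3% from the lowest to the highest. The oxidative phosphorylation genes lay mostly in the upper groups, with 4, 7, 26, 25 and 31 genes. None of the 11 in the 2 lowest groups had a peak, of which 7 were not tissue-restricted, namely Ndufa5, Ndufb10, Ndufs4, Sdhb, Atp5f1, Atp5j2 and 1 model of Atp5o. Among all genes in these 2 groups 4.52% had one. In the third group 12 of 26 members had a peak (46.2%), in the fourth 11 of 25 (44%), and in the highest 23 of 31 (74.2%). In each of the 3 upper groups the members' share was above that of all genes of the same group, by the smallest margin in the fourth. No test of these differences was made.

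**Figure D3:**
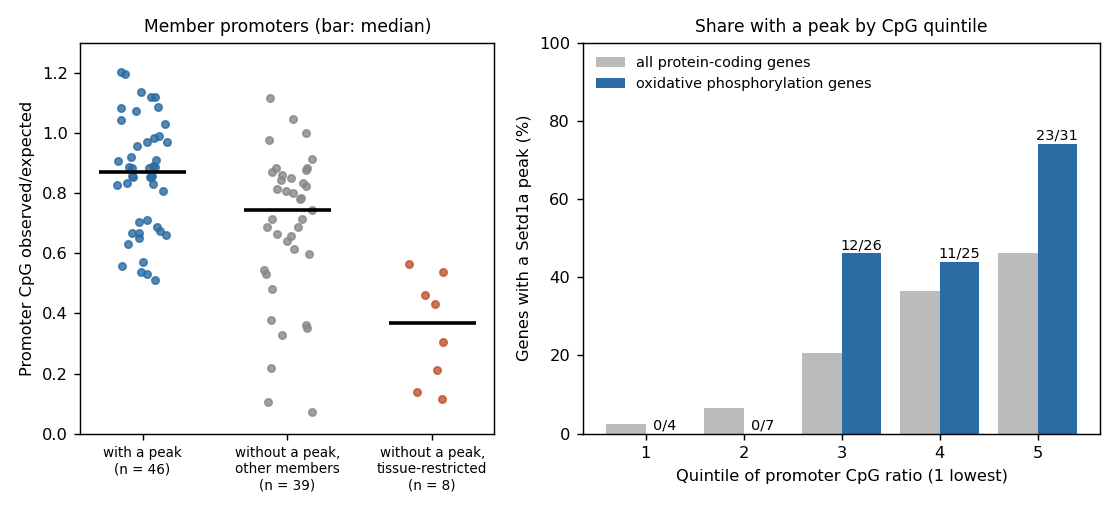
Left, promoter CpG observed over expected (vertical axis) of each oxidative phosphorylation gene, with black bars at the medians of 0.87, 0.74 and 0.37; right, share of genes with a Setd1a peak in percent by quintile of promoter CpG ratio, for all autosomal protein-coding genes (grey) and for the members (blue, with their counts). The members with a peak lie above 0.5, and in the highest quintile 23 of 31 members had a peak against 46.3% of all genes.

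Motifs of factors known to act on these promoters were sought as letters on both strands of the same 300 bases. A match is a description of the sequence and no evidence of binding. GCANGCGC (NRF1) was found at 34.8% of the members with a peak and 27.7% of those without, against 12.7% of all genes and 24.2% of all genes with a peak. AANATGGC (YY1) was found at 19.6 and 12.8% of members with and without a peak, against 6.34 and 10.5% of all genes and all genes with a peak. CCGGAAG (ETS) was found at 19.6 and 14.9%, against 11.4 and 18.9%. For NRF1 and YY1 the members without a peak also had matches more often than all genes. For ETS, 7 of 47 members without a peak had a match, a share near that of all genes. The ETS share of members with a peak was near that of all genes with a peak. TGACGTCA (CRE) was found at 5 members with a peak (10.9%) and 1 without (2.13%), against 2.5% of all genes and 4.49% of all genes with a peak.

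GGGCGG (SP factors) was found at 58.7% of members with a peak, below its share in all genes with a peak (69.2%), and at 31.9% of members without a peak, against 46.1% of all genes. CCAAT was found at 43.5 and 31.9% of members with and without a peak, against 38.2% of all genes. Among all genes with a peak it was found at 41.7%, close to the members with a peak. TATAAA was less frequent with a peak than without, at 6.52 and 14.9% of members, as among all genes with a peak (5.38%) and all genes (12.6%). TCAAGGTCA (ERR, oestrogen-related receptors) was found at 2 members without a peak and none with one, and at 0.409% of all genes. Several of these words contain CpG, their relation to the CpG ratio was not tested, and no test of the shares was made.

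**Figure D4:**
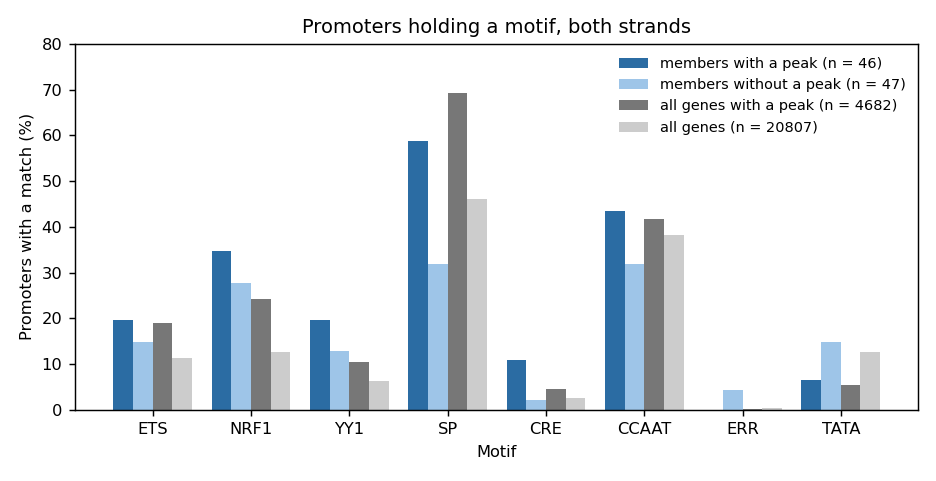
Share of promoters (vertical axis, percent) with a match to each of 8 motifs within 250 bases before and 50 after the reference TSS, on either strand, for members with and without a Setd1a peak, all genes with a peak and all genes. The NRF1 and YY1 bars of both member groups stand above those of all genes, at 34.8 and 27.7% against 12.7% for NRF1, while the SP bar is highest in all genes with a peak (69.2%).

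Among gene families with related functions, the oxidative phosphorylation genes had a share close to that of the cytosolic ribosomal protein genes. Those had a peak in 38 of 82 genes (46.3%), mitochondrial ribosomal protein genes in 28 of 78 (35.9%) and glycolytic enzyme genes in 8 of 22 (36.4%). By the same rule the share over all autosomal protein-coding genes was 22.5%. The median promoter CpG ratio of the families was 0.81 for oxidative phosphorylation, 0.83 for cytosolic and 0.82 for mitochondrial ribosomal proteins, and 0.55 for glycolysis. Peaks at glycolytic genes were narrower, with a median of 322 bp. No difference between families was tested.

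Other genes of the pathway, taken from 2 lists (assembly factors and regulators), were described in the same way. Of 40 assembly factor genes, 15 (37.5%) had a peak, among them Cox11, Cox15, Cox17, Cox18 and Cox20, which act in the assembly of complex IV, Bcs1l and Ttc19 for complex III, Sdhaf2 for complex II, Atpaf2 for complex V, and Timmdc1, Ecsit and Foxred1 for complex I. Surf1, Sco1, Sco2 and Cox10 had none. Of 18 genes for regulators of mitochondrial gene expression, 10 (55.6%) had one. The share over all autosomal protein-coding genes was 22.5%. Neither list was compared with genes of like CpG ratio. Nrf1, which encodes nuclear respiratory factor 1, had a peak of 1151 bp. Yy1 (667 bp), Sp1 (352 bp), Creb1 (687 bp) and Pprc1, a coactivator of the PGC-1 family (842 bp), had one too, as did Gabpa, Gabpb2, Polrmt, Tfb1m and Tfb2m. The coactivator genes Ppargc1a and Ppargc1b, the receptor genes Esrra, Esrrb and Esrrg, and Gabpb1, Tfam and Tefm had none. The NRF1, YY1, ETS, SP and CRE letters were found at member promoters, and Nrf1, Yy1, Gabpa, Sp1 and Creb1 had a peak. The SP letters, however, were no more frequent at members (45.2%) than at all genes (46.1%), and the CRE letters were at 6 of 93 members. No factor gene was listed for CCAAT. The ERR letters were found at 2 members, and its receptor genes had no peak. The interval at Gabpa is the same as that at Atp5j. These items are given as a description, and no link between them was tested.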

How the data were processed

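Setd1a CUT & RUN libraries (2 with Setd1a antibody, 1 with IgG) were sequenced from quiescent NSCs. Per the labels and methods, the authors used bcl2fastq 2.17.1.14, Trimmomatic 0.32, Bowtie2 2.1.0 (unique hits, mm10), SAMtools 0.1.18 and MACS2 2.2.8 and kept peaks present in both replicates; the use of the IgG library in calling is not given in the sources used here. The deposited list of 6969 intervals holds 1-based start and end positions and no scores, so neither depth nor replicate spread could be assessed. Requiring both replicates leaves out weaker sites, and MACS2 splits or joins neighbouring summits, which affects widths.

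Genes and TSSs were taken from GENCODE M21 and sequences from the GRCm38 genome (python 3.11.15, pandas 2.3.3, pysam 0.24.0). A peak was assigned within 1000 bp of any TSS of a gene. The CpG ratio was CpG count times length over the product of C and G counts. Genes were named by role, with the peak closest to a TSS, widest or narrowest given in detail. The values of 1 member are not reported here, though it stays in the counts. Overlap code was tested on simulated data. The members and lists were chosen with earlier results of these data known. Alternatives changed the window, the TSSs, the minimum width (300 or 500 bp) and the assignment.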

Additional observations from a re-analysis of the deposited data

How the results depend on the processing

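The share of members with a peak stayed above that of all genes under the 9 alternatives, at 1.93 to 2.28 times, against 2.2 times as reported. Members and all genes had 38.7 and 17.2% where the peak had to overlap a TSS, 47.3 and 21.8% within 500 bp, 50.5 and 24.1% within 3000 bp, 49.5 and 21.9% with TSSs of coding transcripts, 49.5 and 21.7% with basic transcripts, and 45.2 and 19.9% with peaks of at least 300 bp. With peaks of at least 500 bp 23 members were left, and the shares were 24.7 and 12.8%. With every interval assigned to its closest TSS alone, the shares were 35.5 and 18.3% over all biotypes, and 39.8 and 19.3% over coding genes. None of the 9 alternatives compared the members with genes of like CpG ratio. Within the 3 upper groups by CpG ratio, the shares were 46.2 and 20.6%, 44 and 36.6%, and 74.2 and 46.3%. In the 2 lowest groups no member had a peak, against 4.52% of all genes. No paired analysis was possible because replicates are joined in the list, and for the same reason none could be left out. The unknown depth limits what an absent peak means.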

Other observations

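Chromosome X, outside the 93 genes, holds 3 further genes whose names fit the same naming rule. Ndufb11 had a peak of 234 bp with an edge 65 bp from the TSS, and Cox7b and Ndufa1 had none. Setd1a itself had no peak within 1000 bp of a TSS.

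The list held 2 intervals on mitochondrial DNA, which encodes 13 subunits of the same complexes. They covered mt-Nd1, mt-Nd2, mt-Nd5, mt-Nd6 and mt-Cytb wholly, mt-Co1 to 80.5% and mt-Nd4 to 48.7%, and the other 6 genes not at all. Without heights or an IgG list, the level at these intervals relative to background was not tested.

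Among members lying within 500 kb of each other, Ndufaf3 and Uqcrc1 (369 kb apart) and Atp5d and Ndufs7 (108 kb) each had a peak at both genes. Uqcr11, 158 kb from Ndufs7, and Ndufv1, 100 kb from Ndufs8, had none.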
